A study of Mus musculus with 58 samples.

Results

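The cells described here were 22 single common myeloid progenitors (CMP, numbered 3 to 24) of mouse bone marrow, ranked by how their RNA was divided between erythroid and granulocyte genes. For each cell the counts of 6 erythroid genes (Gata1, Klf1, Car1, Mfsd2b, Epor and Zfpm1) were summed per 10000 counts of the cell, called E. The counts of 4 granulocyte genes (Mpo, Elane, Ctsg and Prtn3) were summed in the same way, called G. The score was the log2 ratio of E to G after 0.1 was added to each. The 8 cells with the highest scores were set against the 8 with the lowest, and 6 cells lay between them. These 16 cells were part of 24 CMP and 58 cells in all, the other 34 being long-term haematopoietic stem cells (LT-HSC). All cells came from wild type C57BL/6 marrow, and no label named an animal, an age or a treatment. The CMP gate took cells without lineage markers, Sca-1 and CD16/32 that carried Kit and CD34, and the LT-HSC gate took Kit and Sca-1 positive cells without lineage markers, Flt3 and CD34. The labels also give a passage range, which they do not explain for sorted cells.

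A CMP is a progenitor whose progeny include red cells, platelets, granulocytes and monocytes. Gata1 and Klf1 encode transcription factors that switch on erythroid genes, and Gata1 also serves megakaryocytes and mast cells. Mpo, Elane, Ctsg and Prtn3 encode myeloperoxidase and 3 serine proteases that early granulocyte precursors pack into their primary granules. Within the gate, single cells are known to carry RNA of more than 1 lineage, and part of the gate is committed to a single lineage.

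The groups were chosen by the same counts that are described here. Each group was cells of 1 gate with no animal named, so cells are not replicates, and no test, p-value or standard error was computed. A level is the summed count of a gene over the 8 cells of a group per 10000 of their summed total. Intervals are exact 95% intervals for counting error only. Whether a count is a read or a molecule is not given in the sources used here, and amplified reads would make the intervals too tight. Log2 ratios are of the high-score over the low-score cells, with 0.5 added to each summed count. The high-score cells held 1866637 counts and the low-score cells 2329405. A high-score cell held a median of 161538 counts (88329 to 463795), and a low-score cell 290977 (166338 to 403030). Thinned to 88329 counts, a high-score cell had a median of 5365 genes with a count and a low-score cell 4897, in ranges that overlap (4746 to 5866 and 4498 to 6287).

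The rank followed the granulocyte sum more closely than the erythroid sum. Spearman's rho with the score over the 22 cells was −0.89 for G and 0.74 for E, as a description of values that make up the score. G was 2.0 to 36.5 per 10000 in the high-score cells, and 42.6 to 148 in the low-score cells, with a median of 79.5. The groups did not overlap in G. E was 4.92 to 29.4 in the high-score cells, with a median of 9.37, and 0.0951 to 7.45 in the low-score cells, with a median of 3.98. Here the groups overlapped, since cells 10, 22, 5 and 12 of the low-score group had E of 4.83 to 7.45, about the level of cells 4, 8 and 6 of the high-score group.

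The label of erythroid-leaning cells fitted only some of the high-score group. E exceeded G in cells 7, 6 and 14 alone. In cell 7, 84.9% of the score counts were erythroid (exact interval 81.3 to 88.1%), in cell 8 19.4% (16.4 to 22.8%) and in cell 23 0.109% (0.0225 to 0.318%). Every high-score cell held Mpo, from 12 counts in cell 6 to 548 in cell 19. Cell 21 had no count of Gata1 or Klf1, and 197 of its 261 erythroid score counts were Car1. The cells are therefore called high-score and low-score cells below. The last high-score cell, number 8, had a score of −2.04 and the next cell, number 15, −2.67. At the other edge cell 17 had −3.05 and cell 10 −3.12, so this edge falls within a run of close scores. Cells 24, 20 and 23 ended the rank at −7.89, −8.64 and −8.80, well below the next cell at −4.70. These 3 cells held 3 to 5 counts of all 6 erythroid genes together. Of the CMP that were not ranked, cell 1 had a score of 0.43 and cell 2 of −5.02. The 34 LT-HSC ranged from −6.71 to 4.32 at a median G of only 3.49.

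**Figure D1:**
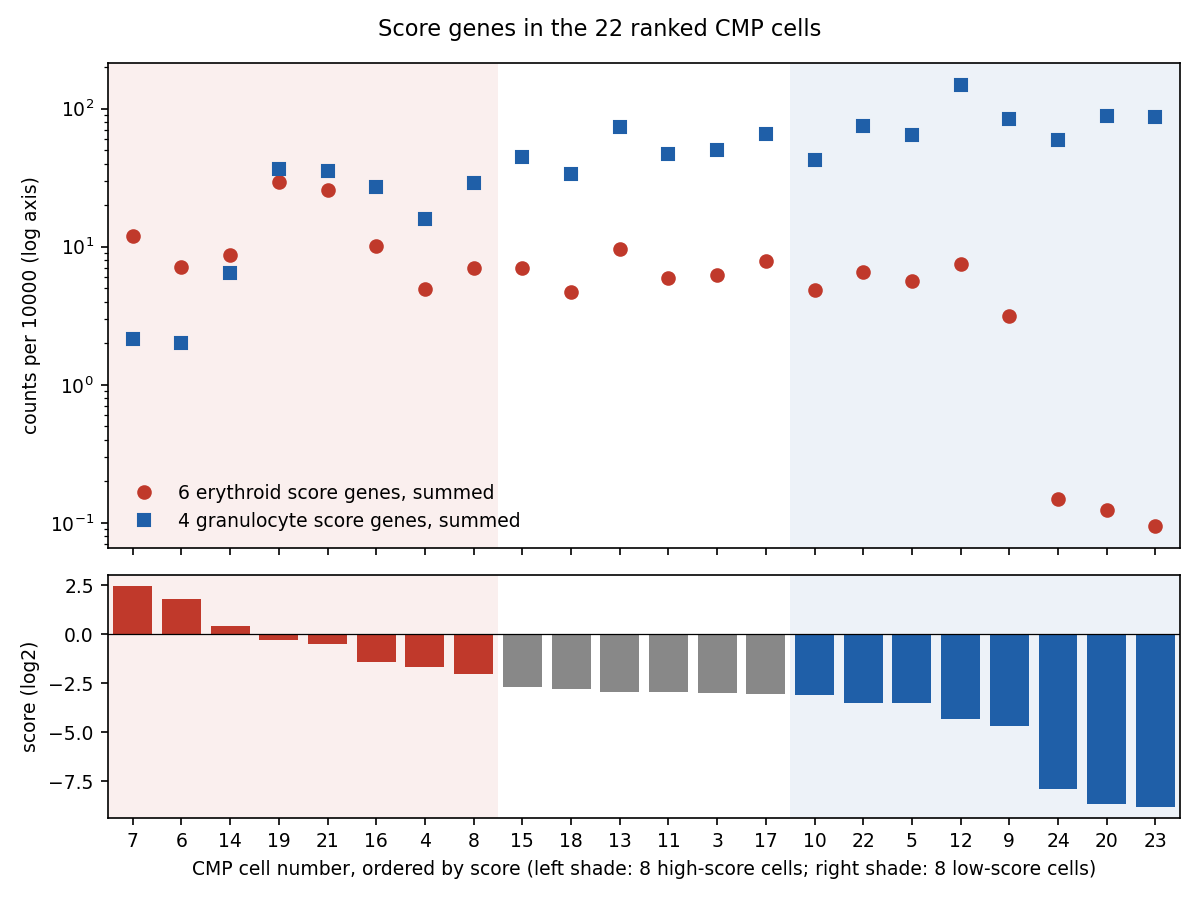
Summed counts per 10000 of the 6 erythroid and 4 granulocyte score genes (upper panel, log axis) and the score (lower panel) in each of the 22 CMP cells, ordered by score from cell 7 at 2.44 to cell 23 at −8.80. G lies between 2.0 and 36.5 in the 8 high-score cells and between 42.6 and 148 in the 8 low-score cells, while E overlaps between them.

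Some cells stood apart from the others in ways the score does not show. Cells 17, 18, 19, 21 and 22, picked after their values were seen, held their granule genes in nearly 1 ratio. Per 100 counts of Mpo they held 86.3 to 95.1 of Elane, 58.4 to 65.0 of Ctsg and 24.1 to 29.8 of Prtn3. In the other 17 cells these values were 0 to 40.9, 8.33 to 121 and 18.8 to 374. The ratio extended to Tyrobp, at 5.47 to 6.87 per 100 Mpo (0.944 to 90.5 in the other cells). It held more loosely for other myeloid genes. Clec12a was at 5.21 to 7.77 (0 to 27.2) and Ly6c2 at 10.7 to 16.4 (0 to 55.45). Ms4a3 varied most of these, at 8.40 to 18.9 (0 to 326). The ratio did not reach Car1, at 0.686 to 150 per 100 Mpo, or Apoe, at 11 to 181. Cells 19 and 21 were in the high-score group, cell 22 in the low-score group, and 17 and 18 between. What makes the ratio alike was not tested. Values without cells 19, 21 and 22 are given below beside the results that rest on them.

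**Figure D2:**
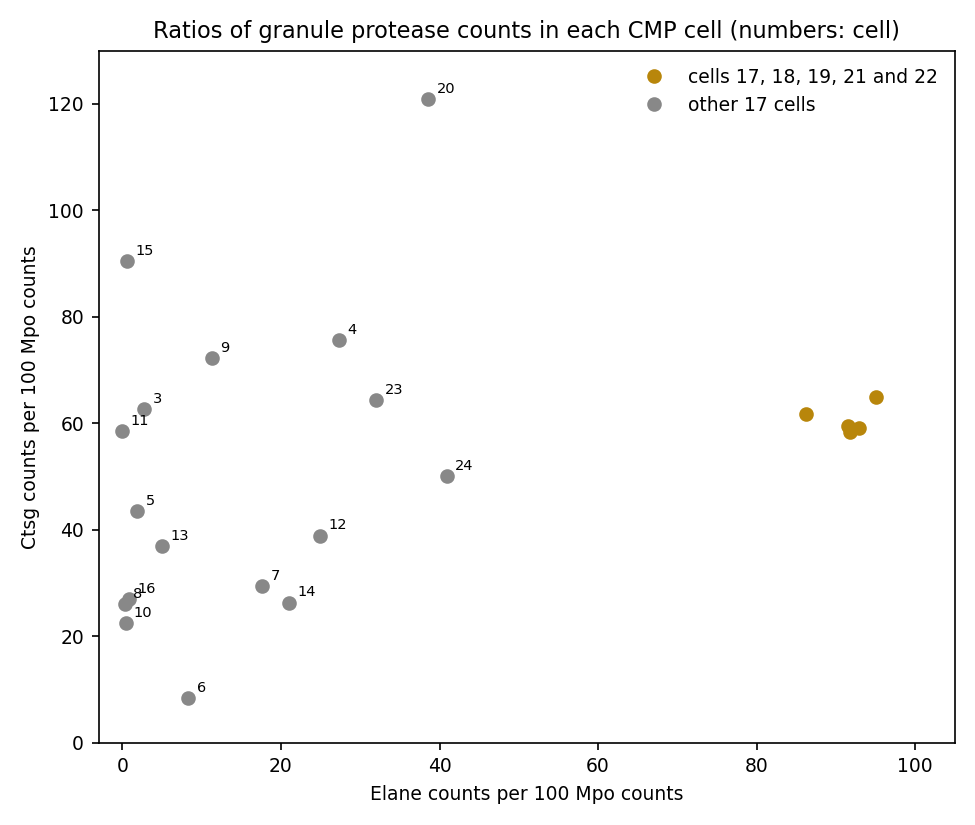
Elane counts (x axis) and Ctsg counts (y axis) per 100 Mpo counts in each of the 22 CMP cells, each point 1 cell, grey points labelled by cell number. Cells 17, 18, 19, 21 and 22 (gold) lie together at 86.3 to 95.1 and 58.4 to 65.0, and no other cell exceeds 40.9 on the x axis.

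The cell number also went with markers of mature neutrophils, which the gate should lack. All 14 cells numbered 3 to 16 held S100a8 (27 to 852 counts), Camp (7 to 327) and Ngp (2 to 142), which encode proteins of later granules and the cytoplasm of neutrophils. In the 8 cells numbered 17 to 24, Camp and Ngp had no count in any cell, S100a8 had 1 to 22 and S100a9 0 or 1. The 9 markers made up 3.78 to 59.4 of 10000 counts in the first set and 0.0303 to 0.619 in the second. No label explains the numbers. The high-score group took 6 cells from the first set and 2 from the second, and the low-score group 4 and 4. For this reason, ratios within cells 3 to 16 (6 against 4) and within cells 17 to 24 (2 against 4) stand beside several results.

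Summed over the groups, 8606 genes had at least 20 counts. Of these, 2384 (27.7%) were at least 2-fold higher in the high-score cells and 1777 (20.6%) in the low-score cells, around a median log2 ratio of 0.11. With so few cells, a ratio of this size is common, and list counts below are to be read against these shares. Without cells 19, 21 and 22 the shares were 27.9% and 22% of 8106 genes. Between the single cells there was almost no clean separation. No gene was higher in every high-score cell than in every low-score cell (0%), and 1 gene (0.0116%) was lower in every one. That gene was Mpo, which the score used.

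The score genes are described first, as the values that chose the cells. Mpo (chr11:87793581-87804413, plus strand, mm10) stood at 8.06 per 10000 in the high-score and 35.0 in the low-score cells. By cell it was 0.889 to 19.8 per 10000 with a median of 9.60, against 24.2 to 69.0 with a median of 32.5. Ctsg (chr14:56099881-56102574, minus strand) had levels of 4.29 and 20.4, and Prtn3 (chr10:79874476-79883174, plus strand) 3.03 and 15.2. Their cells overlapped slightly, since the highest high-score cells had 8.27 of Ctsg and 9.40 of Prtn3 and the lowest low-score cell 6.78 and 5.65. Elane (chr10:79886247-79888215, plus strand) was less tied to the score, at 3.91 and 10.0 per 10000, with a range of 0.0586 to 12.1 by high-score cell and 0.117 to 25.0 by low-score cell. Cell 19 held 71.5% of the Elane counts of its group. Without cell 19 the log2 ratio moved from −1.36 to −2.79, and within cells 17 to 24 it was −0.18. Cell 10 was among the low-score cells with 772 counts of Mpo and only 3 of Elane.

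The promoters of these 4 genes share a short motif. The letters GAGGAA, the core bound by ETS factors such as PU.1, were searched on both strands in the 250 bases before each RefSeq start site (GRCm38.p6). They occurred in all 4 granulocyte score genes, 2 of the 5 erythroid score genes with an entry, and 23.3% of all 32851 promoters. The 30 bases around the match nearest each start are shown for the 4 granulocyte genes that make up the low side of the score, with the motif in capitals, 5′ to 3′ on the gene's strand.
Mpo, chr11:87793548-87793577: tgtggagagagaGAGGAAgttgcctttgtc
Elane, chr10:79886215-79886244: tcgtgtcccaggGAGGAAgtagggctgtgg
Ctsg, chr14:56102773-56102802: ctcccagaaggaGAGGAAgaaaaggaagta
Prtn3, chr10:79879560-79879589: ccaaactggaagGAGGAAgtgggacccaca
The C/EBP-like letters TTGCNNAA were in none of the 4 (9.56% of all promoters). Car1 had no entry and was not searched. Of the other 5 erythroid score genes, Epor alone held the GATA letters AGATAA (9.99% of all promoters). They lay on the opposite strand 54 bases before the Epor start, shown here as the contrast to the granulocyte set with the complement in capitals.
Epor, chr9:21963613-21963642: ggtggctgtagcTTATCTgtccccagcctg
The letters CCNCNCCC, part of the site of Klf1 and its relatives, were in 4 of these 5 promoters, and in 2 of the 4 granulocyte promoters and 45.9% of all. The start of Prtn3 used by RefSeq lies inside the longer gene span given above. A match of letters is a description and shows no binding.

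The erythroid score genes were carried by few cells. Car1 (chr3:14766216-14808368, minus strand), a carbonic anhydrase of early erythroid cells, had a level of 8.48 per 10000 in the high-score and 1.71 in the low-score cells. By cell it was 1.70 to 19.3 with a median of 5.75, against 0.0297 to 6.09 with a median of 1.48. The top of the low-score range lay above 5 of the 8 high-score cells. Gata1 (chrX:7959260-7978071, minus strand) had levels of 1.33 and 0.451, by cell 0 to 3.95 (median 0.507) and 0 to 1.31 (median 0.201). Klf1 (chr8:84901928-84905291, plus strand) had levels of 1.46 and 0.386, by cell 0 to 5.16 (median 0.377) and 0 to 1.31 (median 0.257). Cell 19 was the main source of all 3, with 51.1% of the Car1, 68.5% of the Gata1 and 81.3% of the Klf1 counts of the high-score group. Without it the log2 ratio of Car1 moved from 2.31 to 1.65, that of Gata1 from 1.56 to 0.27 and that of Klf1 from 1.92 to −0.12. Within cells 3 to 16 the ratios were 0.17, −0.19 and −0.73. In those same cells the granulocyte score gene Mpo was at −2.82. The other erythroid score genes, Zfpm1, Mfsd2b and Epor, were at 4.29, 1.79 and 0.9 there. All of these genes chose the cells, so their ratios only describe that choice. Zfpm1, which encodes a partner of GATA factors, followed cell 7 in place of cell 19, with 66.2% of its counts there, and Mfsd2b, a sphingolipid transporter gene, followed cell 22 in the low-score group with 80.2%. Without cell 22 the log2 ratio of Mfsd2b was 3.13, where it was 1.0 with it, and that of Zfpm1 was 4.92, where it was 3.34. Without cell 7 the Zfpm1 ratio was 2.05. Epor, the erythropoietin receptor gene, had 18 and 7 counts, 5 of the 7 in cell 12.

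Erythroid membrane, enzyme and marker genes outside the score were mostly higher in the high-score cells. Of 21 members with at least 20 counts, 12 were at least 2-fold higher there and none in the low-score cells, with a median log2 ratio of 1.39 beside 0.11 for all genes. Without cells 19, 21 and 22 it was 12 of 20 with a median of 1.19. Within cells 3 to 16, the median was 0.29 beside 0.17 for all genes. Summed over the list, each high-score cell had 13.1 to 74.1 of 10000 counts (median 32.8) and each low-score cell 1.22 to 37.4 (median 10.8). The groups overlap through cells 8 and 5. Car2, another carbonic anhydrase gene, stood at 9.93 per 10000 in the high-score and 3.78 in the low-score cells, by cell 5.67 to 19.8 (median 9.60) and 0.327 to 9.35 (median 2.83). Its log2 ratio was 1.39 (interval 1.28 to 1.51), and 0.69 within cells 3 to 16. Apoe, the apolipoprotein E gene, had 2617 and 978 counts, by cell 0.351 to 43.3 (median 11.9) and 0.127 to 22.1 (median 0.364). Cell 5 held 72.7% of the Apoe counts of the low-score cells, and leaving it out took the ratio from 1.74 to 3.40. Within cells 3 to 16 the Apoe ratio was only 0.3, and within cells 17 to 24 it was 4.81. Cell 8 was the exception among the high-score cells, with 6 counts. The members with the highest ratios were Samd14 at 3.04, Aqp1, a water channel gene, at 2.84, Tspo2 at 2.65 and Sphk1, a sphingosine kinase gene, at 2.64. Cell 19 held 90.3% of the Samd14, 66.4% of the Aqp1 and 83.7% of the Tspo2 counts. Without it Aqp1 was at 1.65 and Tspo2 at 0.43. Samd14 then had 6 and 9 counts, too few for a ratio here. Without cell 22 Samd14 was at 3.94, and without cell 12 Tspo2 was at 3.42. Sphk1 was spread over 6 high-score cells on only 22 counts against 4. All cells numbered 3 to 16 had 1 to 5 Sphk1 counts, and no cell numbered 17 to 24 had any. Within cells 3 to 16 its ratio was 1.92.

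Transcription factors of the erythroid lineage went both ways. Of 12 regulators with enough counts, 3 were at least 2-fold higher in the high-score cells and 1 in the low-score cells, with a median of 0.26, and of 1.08 without cell 5. Gata2 (chr6:88193891-88207032, plus strand), the GATA factor of stem and early progenitor cells, had a count in all 16 cells. It stood at 1.70 per 10000 in the high-score and 0.185 in the low-score cells, by cell 0.234 to 8.49 (median 0.974) and 0.0601 to 0.545 (median 0.121). Its 7 highest high-score cells lay above all 8 low-score cells, and cell 8, at 0.234, lay among them. The log2 ratio of Gata2 was 3.19 (interval 2.74 to 3.70), it lay between 2.05 and 4.70 within each set of cell numbers, and rho with the score over 22 cells was 0.71. Cbfa2t3, which encodes a corepressor in GATA1 complexes, had levels of 1.83 and 0.240 and a ratio of 2.92, or 2.33 without cell 19. It did not run evenly with the score (rho 0.23). High-score cells 7, 16 and 8 had 1 Cbfa2t3 count each, and middle cells 18 and 17 had 207 and 146. Ldb1, the adaptor that joins GATA1 complexes, had 101 and 18 counts and a ratio of 2.78. Tal1, Lmo2, Gfi1b and Nfe2, which act with them, had ratios of −0.73, 0.06, 0.23 and 0.16. Zbtb7a, a repressor used in late erythroid cells, was lower in the high-score cells at −1.75, but 75.7% of its low-score counts were in cell 23, without which the ratio was 0.06. Without cell 7 it was −2.45.

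Heme synthesis and iron genes did not follow the score as a list. Of 23 members, 7 passed 2-fold in the high-score and 4 in the low-score cells, with a median of 0.21, and the summed share overlapped fully, at 50.6 to 99.1 and 57.8 to 91.9 of 10000. Cpox and Urod, which encode late enzymes of the pathway, had ratios of 3.86 and 1.81 and rested on cell 19, which held 84.8% and 73.6% of their high-score counts. Without that cell they were at 1.55 and 0.27. Without cell 12 Cpox was at 5.16. Alad, the enzyme of the second step, was lower in the high-score cells at −1.46, or −0.81 without cell 5, and Alas1, the enzyme that starts the pathway outside red cells, at −1.55. Slc25a38, a mitochondrial glycine carrier gene needed for heme, had a count in all 8 high-score cells, at 0.216 to 0.978 per 10000 (median 0.383), and 0 to 0.429 (median 0.0758) in the low-score cells. Its ratio was 1.88, and 2.63 without cell 10. The transferrin receptor gene Tfrc was nearly level, with 148 and 160 counts and a ratio of 0.21.

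**Figure D3:**
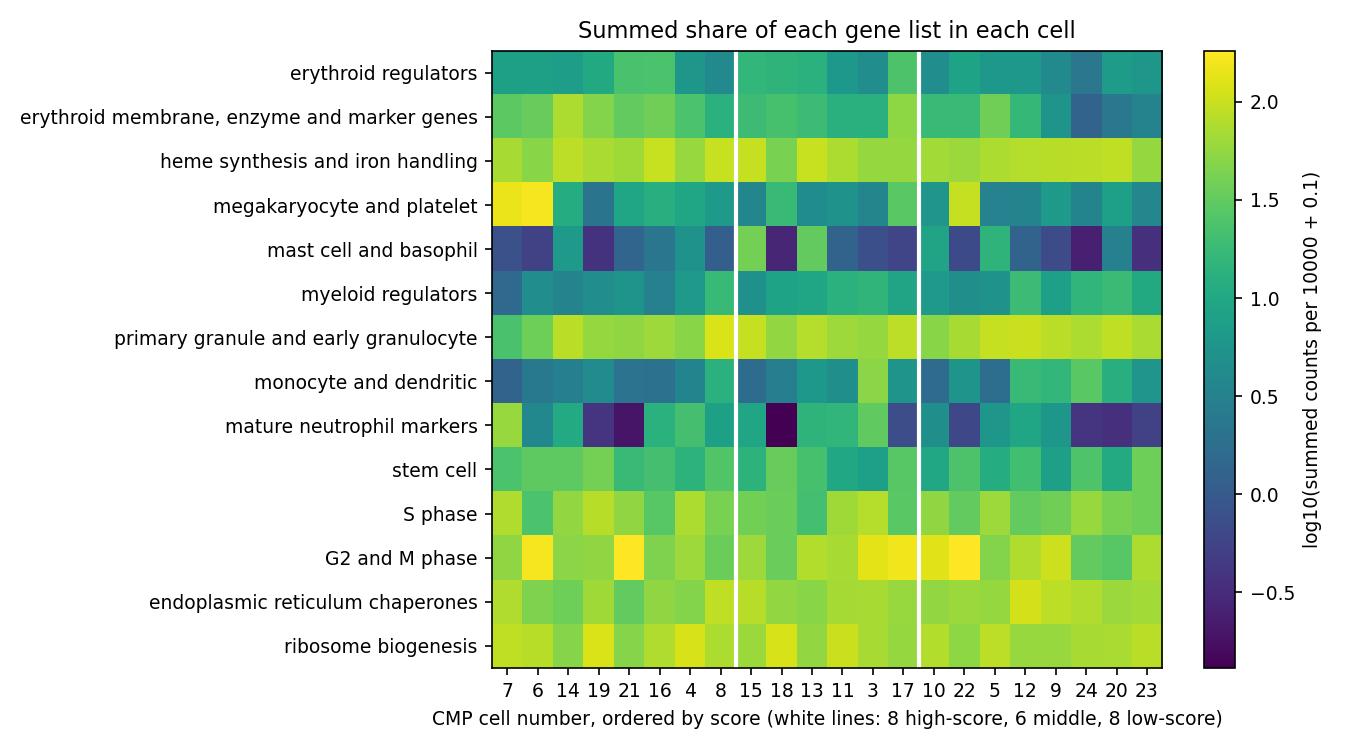
Summed counts per 10000 of 14 gene lists (rows, colour on a log10 scale after 0.1 was added) in each of the 22 CMP cells (columns, ordered by score; white lines bound the 8 high-score, 6 middle and 8 low-score cells). Megakaryocyte genes stand out in cells 7, 6 and 22, mast cell genes in cells 15 and 13, monocyte genes in cell 3, and mature neutrophil markers are low in cells 17 to 24.

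Megakaryocyte and platelet genes had some of the highest ratios, and they marked single cells on both sides. Of 20 members with enough counts, 13 were at least 2-fold higher in the high-score cells and none in the low-score cells, with a median of 1.72. The summed share was 163 of 10000 in cell 6, 147 in cell 7 and 96.1 in cell 22, a low-score cell, and at most 28.5 in every other cell. Pf4, platelet factor 4, showed this most plainly, with 3196 counts in cell 7, 1653 in cell 6, 1860 in cell 22 and 2 to 127 in the other 19. Its levels were 26.4 and 8.44 per 10000, a log2 ratio of 1.65. Without cell 22 the Pf4 ratio was 5.69, without cell 7 0.41, and within cells 17 to 24 −4.48. Itga2b, the integrin alpha chain of platelets, moved the same way, from 1.79 to 3.11 without cell 22, to 1.14 without cell 7 and to −1.66 within cells 17 to 24. The list median was 4.39 without cell 22, 0.47 without cell 7, 4.80 without cells 19, 21 and 22 (16 of 20 members at least 2-fold higher) and −2.15 within cells 17 to 24. Cells 7 and 6, the top of the rank, were thus cells with megakaryocyte RNA, and Zfpm1, which megakaryocytes also use, gave 190 of the 389 and 43 of the 97 erythroid score counts in them.

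Genes of the platelet glycoprotein receptor differed among the 3 cells. Gp9 (chr6:87778072-87779768, plus strand), a subunit of the von Willebrand factor receptor, had 156 counts in 5 high-score cells and 1 in the low-score cells, in cell 22. The levels were 0.836 and 0.00429 per 10000, and the log2 ratio was 7.02 (interval 5.11 to 12.92). The counts were 94 in cell 7, 12 in cell 6, 23 in cell 14, 26 in cell 21 and 1 in cell 19. Of the middle cells, which the ratio does not use, cell 17 had 64 Gp9 counts and cell 13 had 9. Without cell 22 the ratio was 8.43 and without cell 7 5.97. Gp5, another subunit, had 213 and 4 counts and a ratio of 5.89, or 5.13 without cell 7 and 6.57 without cell 10. Gp1bb, a further subunit, was shared by the 3 cells and the middle cell 17. It had 264 counts in cell 7, 46 in cell 6, 38 in cell 22 and 37 in cell 17. Without cell 22 its ratio moved from 3.23 to 6.29, and without cell 7 to 0.95. Treml1 and Itgb3 rested on cell 7, with 72.0% and 93.5% of their high-score counts, against 1 count each in cell 5. Their ratios of 6.10 and 5.70 were 7.47 and 7.07 without cell 5, and Treml1 was at 4.56 without cell 7. Itgb3 then had 4 and 1 counts, too few for a ratio here. The middle cell 17 had 36 counts of Treml1 and 1 of Itgb3. Vwf split as Pf4 did, with 67.9% of its high-score counts in cell 7 and 98.0% of its low-score counts in cell 22. Its ratio of 0.51 became 5.38 without cell 22 and −0.83 without cell 7.

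Without cells 19, 21 and 22, 4 genes (0.0493% of 8106) were higher in all 6 remaining high-score cells than in all 7 low-score ones. Among them were Mgmt, a DNA repair gene, and Sgpp1 and Sphk1, genes of sphingosine phosphate turnover. The 6 cells were all numbered 3 to 16, and Sphk1 had no count in any cell numbered 17 to 24. Kit, the stem cell factor receptor that the gate requires on the surface, stood at 3.65 and 0.567 per 10000. In single cells it was 0.351 to 9.28 (median 2.02) and 0.190 to 0.938 (median 0.633), on 5 to 29 counts in each low-score cell. Cell 4 held 56.8% of the high-score Kit counts, and without it the ratio moved from 2.68 to 1.88. Of the genes described here, Kit, Car2, Apoe, Pf4, Itga2b, Vwf, Gp1bb, Urod, Alad, Cpa3, Ms4a2, Ms4a3, Spi1, Runx1, Plac8, Slpi, Ptpn6, S100a8, Ly86, Csf1r, Gata2, Gp9, Irf8, Camp, Ngp, S100a9, Tyrobp, Clec12a and Mcpt8 were chosen as markers or after their values were seen, some of them besides being named by the rule for their list, and members named with a ratio alone were picked the same way.

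Mast cell genes were held by cells in the middle and on both sides. Of 7 members with enough counts, 1 was at least 2-fold higher in each group, with a median of 0.32, or −0.67 without cell 14. Cpa3, a carboxypeptidase gene of mast cells and their progenitors, had 783 counts in cell 15 of the middle, 395 and 168 in cells 5 and 10 of the low-score group, and 177 and 55 in cells 4 and 14 of the high-score group. The other 17 cells had 0 to 11. Cell 13, with the next highest share of the list after cell 15, had 159 counts of the basophil protease gene Mcpt8 in its place. The Cpa3 ratio of −0.92 moved to 0.47 without cell 5 and to −2.29 without cell 4. Hdc, the histamine-forming enzyme gene, had 5 and 65 counts, 69.2% of the latter in cell 5, without which the ratio moved from −3.25 to −1.79. Without cell 19 it was −4.01. Ms4a2, the Fc receptor beta chain of mast cells and basophils, had 34 of its 36 high-score counts in cell 14 and 22 of its 24 low-score counts in cell 10. Without cell 14 its ratio was −2.85 and without cell 10 4.02, where it was 0.89 with both.

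Granule and early granulocyte genes outside the score were lower in the high-score cells or near level. Of 21 members with enough counts, 9 were at least 2-fold higher in the low-score cells and none in the high-score cells, with a median of −0.81. The median was −0.65 without cells 19, 21 and 22 and −0.70 within cells 3 to 16, so it moved less than the erythroid and megakaryocyte medians. The summed share overlapped, at 22.5 to 120 (median 55.9) in the high-score and 50.9 to 103 (median 80.1) in the low-score cells. Cell 8 had the highest share of all 22. Plac8, a gene of immature myeloid cells, stood at 16.8 and 37.0 per 10000. In single cells it was 0.666 to 76.4 (median 10.8) and 15.8 to 58.6 (median 39.8), with 1304 of the 3134 high-score counts in cell 8. Without that cell the ratio moved from −1.14 to −1.78. Prss57, another granule protease gene, had 16 and 143 counts and a ratio of −2.80, or −4.30 without cell 19. Hk3, a myeloid hexokinase gene, had 4 and 114 counts, 53.5% of the latter in cell 5. Its ratio of −4.35 was −3.47 without cell 5 and −5.56 without cell 19. Slpi, which encodes an inhibitor of elastase and cathepsin G, had a ratio of −2.38, or −3.90 without cell 7 and −1.57 without cell 20. Ms4a3, a granulocyte progenitor marker, and Lyz2, lysozyme, differed little, at −0.53 and −0.29. Nkg7 and Cst7 were slightly to the other side, at 0.55 and 0.43. Without cell 19 Ms4a3 was at −1.13.

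Of the myeloid regulators, 5 of 10 were at least 2-fold higher in the low-score cells and 2 in the high-score cells, with a median of −0.95, or −2.09 without cell 8. Irf8 (chr8:120736358-120756694, plus strand), the factor that directs monocytes and dendritic cells, stood at 0.718 and 4.66 per 10000, with a ratio of −2.69 (interval −2.97 to −2.44). By cell it was 0.0740 to 6.15 (median 0.207) against 0.0390 to 13.4 (median 3.71). Cell 8 held 78.4% of the 134 high-score counts, and without it the ratio was −4.74. On the low side, cells 12, 24, 20, 23 and 9 had 352, 326, 224, 82 and 80 counts, and cells 22, 5 and 10 only 16, 4 and 1. Spi1, which encodes PU.1, was more even. It stood at 0.996 and 3.19 per 10000, by cell 0 to 3.46 (median 1.02) and 0.870 to 6.09 (median 2.15). Its ratio of −1.68 was −0.88 without cells 20, 23 and 24. Cebpa, the factor that starts granulocyte differentiation, had 8 and 54 counts and a ratio of −2.36, or −1.22 without cell 20, which held 63.0% of the low-score counts. Runx1 had a ratio of −1.14, or −1.90 without cell 8. Gfi1 had only 12 and 26 counts. Zeb2 went the other way, at 1.79 and 0.193 per 10000, a ratio of 3.20, or 2.56 without cell 4. Its rho with the score was 0.36, and middle cells 3 and 18 had 194 and 179 counts. Cebpd, also higher in the high-score cells, had 33 of its 40 counts there in cell 8, without which it had 7 and 12.

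Monocyte and dendritic cell genes had a median of −2.05, the lowest of the 23 lists. Of 14 members with enough counts, 9 were at least 2-fold higher in the low-score and 4 in the high-score cells. The median was −2.18 without cells 19, 21 and 22, −1.83 within cells 3 to 16 and −3.70 within cells 17 to 24. Batf3, which had no low-score count, was at least 9.15-fold higher in the high-score cells by a floor of 3 counts over the group, 95.5% of it in cell 4, and placing it at that bound left the median at −2.05. Ly86 (chr13:37345208-37419036, plus strand), the MD-1 protein gene, stood at 0.230 and 3.13 per 10000, with a ratio of −3.75 (interval −4.25 to −3.32). By cell it was 0 to 1.46 (median 0.0698) and 0.0779 to 9.0 (median 1.03). Cells 24, 20 and 12 had 303, 280 and 93 counts, and of the high-score cells only 8 and 19 had more than 1, with 25 and 14. Without cell 8 the ratio was −4.85. Ctss, the cathepsin S gene, had 5 and 283 counts, 71.7% of the latter in cell 24, without which its ratio moved from −5.37 to −3.78. Csf1r, the macrophage colony-stimulating factor receptor gene, had 5 and 87 counts, in cells 20, 9, 12, 23 and 10 of the low-score group, and a ratio of −3.67. Cells 5, 22 and 24 had no Csf1r count. By summed share of the list, low-score cells 24, 12, 9 and 20 had 28.4, 17.0, 15.8 and 12.6 of 10000 counts, cells 23 and 22 had 5.61 and 5.44, and cells 5 and 10 had 1.71 and 1.52. Cells 5 and 10 carried Cpa3, and cell 22 Pf4. Cell 3, a middle cell, had the highest summed share of the list, at 52.3 of 10000 against 28.4 in cell 24.

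**Figure D4:**
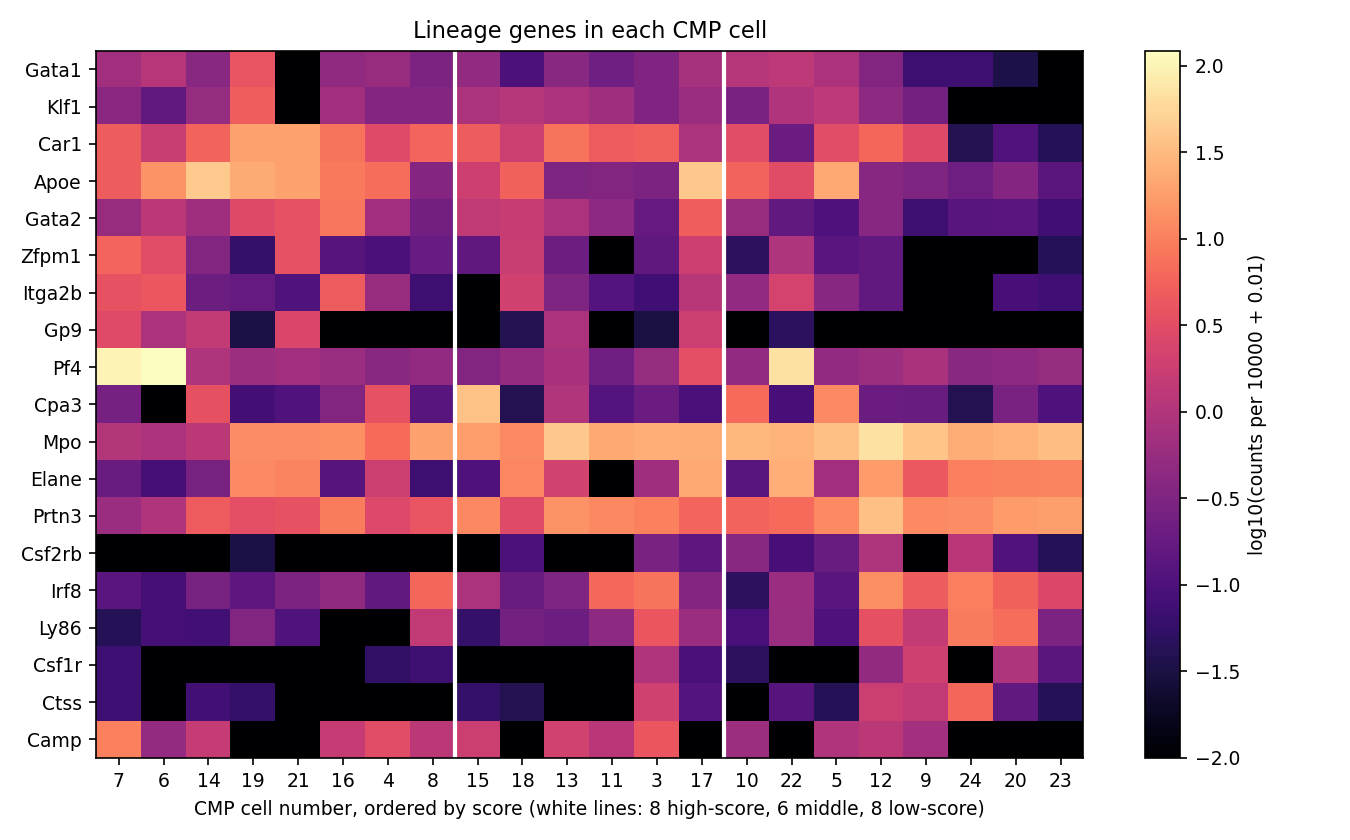
Counts per 10000 of 19 lineage genes (rows, colour on a log10 scale after 0.01 was added) in each of the 22 CMP cells (columns, ordered by score; white lines bound the 8 high-score, 6 middle and 8 low-score cells). Pf4 is bright in cells 7, 6 and 22, Cpa3 in cells 15 and 5, and Irf8 in cells 8, 11, 3, 12, 9, 24, 20 and 23, so neither group is of 1 kind.

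Cytokine receptor genes were on both sides. Of 22 with enough counts, 9 were at least 2-fold higher in the low-score and 4 in the high-score cells, with a median of −0.59, and the summed share had a rho of −0.09 with the score. Csf2rb (chr15:78325752-78353847, plus strand), the shared beta chain of the GM-CSF, IL-3 and IL-5 receptors, had 1 count in the high-score cells, in cell 19. The low-score cells had 87 counts in 7 of 8 cells, 40 in cell 24, 24 in cell 12, 10 in cell 10 and 1 to 6 in cells 5, 20, 22 and 23. The ratio was −5.55 (interval −11.44 to −3.61), and −4.89 without cell 24 or −6.75 without cell 19. A near copy of this gene lies beside it, so the counts are uncertain. Other receptor genes lower in the high-score cells were Ifngr2 at −2.82, Ifnar2 at −2.34, Il3ra at −2.36 and Flt3 at −1.62. Tgfbr1, a receptor of TGF-beta, was higher, with 73 and 4 counts and a ratio of 4.35. Its high-score counts lay in cells 4, 8, 19, 21, 7 and 16. The middle cell 15 had 59, more than any of the 16, so Tgfbr1 did not run evenly with the score (rho 0.34).

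By a rule of size and spread over cells, with the score genes left out, 15 genes were chosen as the highest in the high-score cells, of which 14 are described: Wipf2, Macrod1, Dok2, Ier5, Sorbs3, Tgfbr1, Optn, Mrgpra6, Sgms1, Utp15, Gpatch4, Wdr33, Slc8a1 and Parg. The 15 came from 1385 genes that met the rule, which asked for at least 50 counts over both groups, a count in at least 5 of the 8 cells of the higher group and no cell with over 50% of that group's counts. Their log2 ratios ran from 5.83 for Wipf2 down to 3.70 for Parg. Dok2, an adaptor that damps receptor kinase signals, had 134 and 5 counts and a ratio of 4.93. By cell it was 0 to 1.96 per 10000 (median 0.461) and 0 to 0.0951 (median 0), with 54, 29, 25 and 20 counts in cells 7, 4, 14 and 21. Without cell 23, which held 3 of the 5 low-score counts, it was 5.86. Sorbs3, which encodes the adhesion protein vinexin, had 57 and 3 counts and the highest rho of the 14, at 0.62, with 28 counts in cell 14 and 16 in cell 16. Its ratio of 4.36 was 5.31 without cell 20 and 3.52 without cell 14. Gpatch4, a nucleolar protein gene, had 323 and 28 counts and a ratio of 3.82, or 5.30 without cell 9. Wdr33, a subunit of the complex that cleaves and polyadenylates messenger RNA, had 172 and 16 counts in 7 cells of each group and a ratio of 3.71 (interval 3.01 to 4.58). Cell 16, of the high-score group, had no count of either. Cell 19 or cell 4 was the leading high-score cell for 11 of the 14, and these were the 2 deepest of the 16 cells. Every other ratio of the 14 that a single cell moved by over 1.5-fold moved upward when a low-score cell was left out. These were Wipf2 (7.20), Sgms1 (5.39), Slc8a1 (7.88) and Parg (4.86) without cell 5, Macrod1 (7.89) without cell 12, Ier5 (5.67) without cell 24 and Mrgpra6 (4.76) without cell 10.

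Of the 15 genes lowest in the high-score cells by the same rule, the 14 described were Csf2rb, Rfxank, Sclt1, Mpi, Dynlt1f, Glt8d1, B3galt6, Mfng, Pyhin1, Lpin1, Plbd2, Tmem43, Stat6 and Pbxip1, from 1467 that met it. Their ratios ran from −5.55 to −4.06, and each had 1 to 9 counts over the 8 high-score cells. Rfxank, a subunit of the factor that switches on MHC class II genes, had 2 and 143 counts, by cell 0 to 0.0309 per 10000 (median 0) and 0 to 1.90 (median 0.424), a ratio of −5.52. Tmem43, a nuclear membrane protein gene, had 9 and 233 counts and a ratio of −4.30 (interval −5.52 to −3.43). It had 96, 43, 41, 30 and 20 counts in cells 23, 24, 5, 22 and 10, and at most 3 in the high-score cells. The middle cell 3 had 80. Lpin1, a phosphatidate phosphatase gene, had 5 and 163 counts, 76 in cell 20 and none in cell 9. Its ratio was −4.57, or −3.95 without cell 20 and −5.30 without cell 4. Stat6, which carries IL-4 signals, had 5 and 126 counts, 47.6% of the latter in cell 5. Its ratio of −4.20 was −3.49 without cell 5 and −4.79 without cell 16. Without cell 7, the only high-score cell with a count of them, Sclt1 was at −6.82 and B3galt6 at −6.12, and Mpi was at −6.01 without that cell. B3galt6 was at −4.10 without cell 24 and −4.15 without cell 10, and Pyhin1 at −3.99 without cell 24. Mfng was at −5.37 without cell 6. Pbxip1 was at −4.82 without cell 21, −4.80 without cell 6 and −3.44 without cell 20. Dynlt1f was at −6.38 without cell 14. It belongs to a family of near-identical copies, so its counts are uncertain. Of these 14 genes 10 had a promoter entry, and 3 of their 11 promoters held TTGCNNAA, 1 held AGATAA and 1 GAGGAA. Of the 14 higher genes 9 had an entry, and of their 15 promoters none held TTGCNNAA, 2 held AGATAA and 4 GAGGAA.

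Among the genes outside the score, Pgam1 (chr19:41911923-41918660, plus strand), the gene of the glycolytic enzyme phosphoglycerate mutase, had a rho with the score of −0.76, farther from 0 than that of any other gene described here outside the score. All 22 cells held it. It stood at 0.948 per 10000 in the high-score and 4.44 in the low-score cells, by cell 0.0657 to 2.49 (median 0.825), 2.76 to 3.98 in the middle cells and 2.18 to 10.6 (median 3.74) in the low-score cells. Of the high-score cells only cell 16, at 2.49, was above a low-score cell, cell 22 at 2.18. The ratio was −2.22 (interval −2.47 to −2.0), and −2.57 within cells 3 to 16 and −1.98 within cells 17 to 24. Without cells 19, 21 and 22 it was among the 5 genes (0.0617%) lower in every high-score cell, with Ptpn6, Sart1 and the score genes Mpo and Ctsg. The other glycolysis genes went both ways. Of 15 members, Pgam1 included, 3 passed 2-fold in the high-score and 2 in the low-score cells, with a median of −0.27. Beside Pgam1, the member past 2-fold in the low-score cells was Pfkm, with 19 and 62 counts and a ratio of −1.36. Pfkl, a phosphofructokinase gene, was at 1.60, or 1.01 without cell 8 and 2.30 without cell 5. The glucose transporter genes Slc2a1 and Slc2a3 were at 3.89 and 2.45 on 41 and 50 high-score counts, and Slc2a1 was at 3.13 without cell 4 and 4.93 without cell 22. Ptpn6, the phosphatase SHP-1 that restrains blood cell signalling, had a ratio of −0.58 over all 16 cells, since cell 19 held 146 of the 288 high-score counts, and −1.21 without that cell.

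Endoplasmic reticulum chaperone genes were near level as a list, with 2 of 23 at least 2-fold higher in the low-score cells, none in the high-score cells and a median of −0.10. P4hb, protein disulfide isomerase, was the member most tied to the score, with a rho of −0.65. It stood at 1.56 and 3.86 per 10000, by cell 0.328 to 4.45 (median 1.26) and 1.64 to 5.89 (median 3.70). Of the high-score cells, 8, 21, 4 and 7 lay within the low-score range and 6, 14, 16 and 19 below it. The ratio was −1.30 (interval −1.50 to −1.11), and it lay between −2.11 and −1.08 in the subsets of cells given here. Xbp1, the secretory stress factor gene, had a ratio of −1.21, or −0.58 without cell 20.

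Cell cycle genes did not separate the groups. Of 42 S phase genes, 15 were at least 2-fold higher in the high-score and 2 in the low-score cells, with a median of 0.48. Without cells 19, 21 and 22, 7 and 1 were, with a median of 0.29. The summed S phase share was 23.2 to 83.6 of 10000 (median 55.8) and 31.7 to 62.9 (median 40.3), so the low-score range lay inside the other. Dtl, a ubiquitin ligase adaptor that limits replication to once per cycle, had 305 and 32 counts. Its ratio was 3.55, or 4.49 without cell 24, and cells 19 and 4 held 129 and 98 of its counts. The replication helicase genes Mcm2 and Mcm6 were at 1.36 and 1.24, and Mcm3, Mcm4, Mcm5 and Mcm7 at −0.02, −0.09, 0.09 and −0.15. Of 52 G2 and M phase genes, 11 were higher and 6 lower by the same fold, with a median of −0.17, and the median was −0.79 without cells 20, 23 and 24. The highest shares, 166 in cell 6, 178 in cell 21 and 182 in cell 22, were on both sides. Ribosome biogenesis genes had 7 of 24 members higher and none lower, with a median of 0.39. Ddx21, a nucleolar helicase gene, was at 4.15 and 1.29 per 10000, a ratio of 1.68. Npm1, the most counted member, had a ratio of 0.18, and Ncl 1.19.

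**Figure D5:**
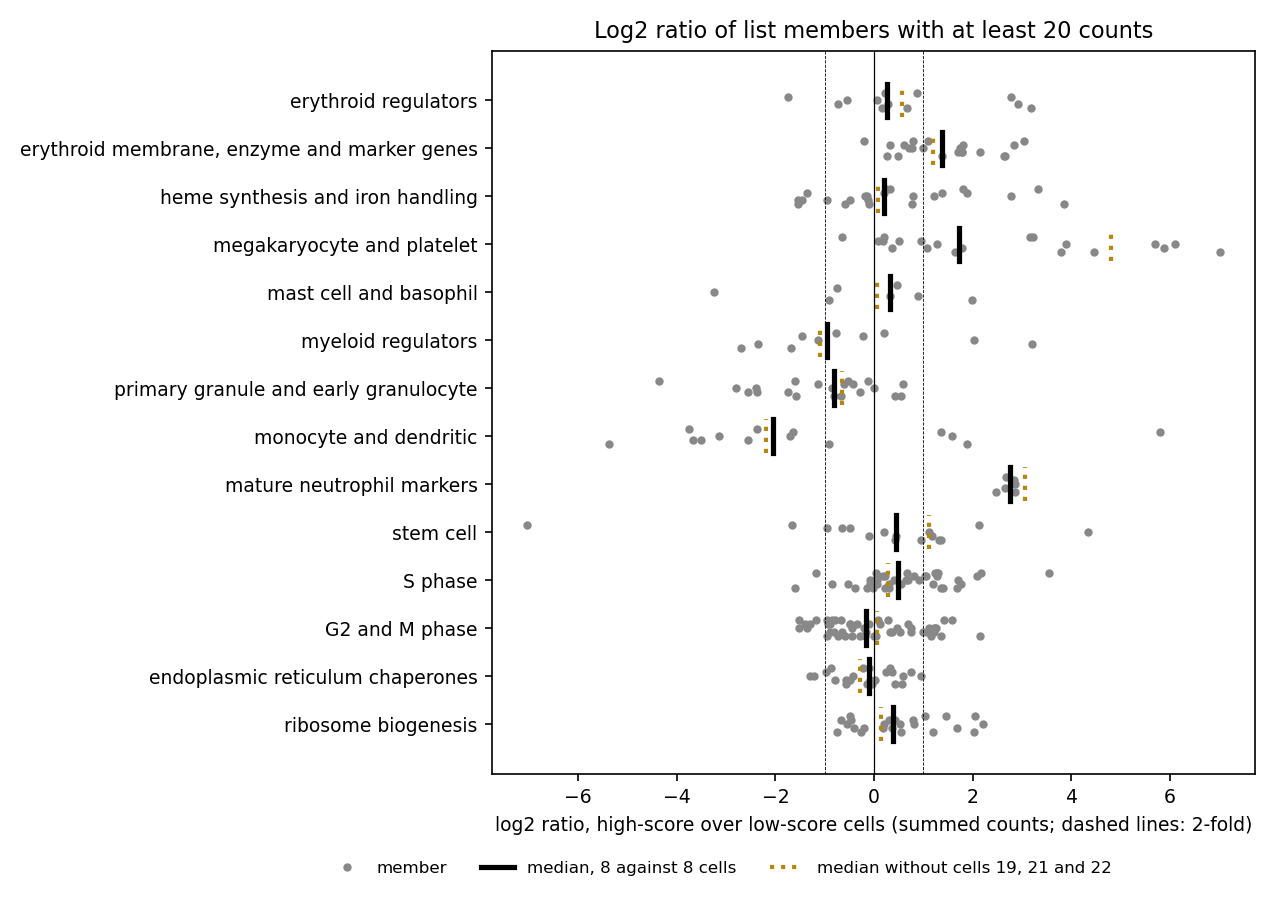
Log2 ratio of high-score over low-score cells for each member with at least 20 counts (grey points) of 14 gene lists, with the list median over 8 against 8 cells (black bars) and without cells 19, 21 and 22 (dotted gold bars). The megakaryocyte median moves from 1.72 to 4.80 and the stem cell median from 0.44 to 1.12, while the monocyte median moves from −2.05 to −2.18.

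Summed over the groups, markers of mature neutrophils were higher in the high-score cells, on the side opposite to the granulocyte score genes. All 6 members with enough counts were at least 2-fold higher there, with a median of 2.76. S100a8 stood at 8.51 and 1.52 per 10000 and Camp at 2.89 and 0.395. By high-score cell the summed share was 0.0978 to 59.4 of 10000 (median 9.43). The middle cells had 0.0303 to 30.7 (median 11.8) and the low-score cells 0.248 to 9.43 (median 2.62). The groups thus overlapped, and rho of the share with the score was 0.31. The share of 59.4 was that of cell 7, and without that cell the median log2 ratio was 1.57. The high-score group has more cells numbered 3 to 16, where these markers are found. Within those cells, with cell 7 among them, the median log2 ratio was 2.05. Within cells 17 to 24 the 1 member with enough counts, S100a8, was at −0.47. In the cells with these markers S100a8 made up 38.6 to 52.9% of the 9 markers' counts. Their part in other results was not tested.

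Few markers of other cell types had enough counts. Of the 13 markers of B, T and NK cells 1 had enough counts, with 7 listed at 0 in all 22 cells, among them Cd3e and Ms4a1. The summed share was 0 to 2.53 of 10000 in the high-score and 0 to 2.16 in the low-score cells. Most of it was Cd79b, with 82 counts in cell 7 and 68 in cell 23, and a ratio of −0.12 that was −2.02 and 0.59 without each of them. Of 9 macrophage markers 1 had enough counts, and the defining Adgre1 was at 0 in all cells. The share was 0 to 0.819 and 0 to 1.28. Of 10 endothelial and stromal markers 3 had enough counts, with Cdh5 and Kdr at 0 in all cells and shares of 0 to 3.85 and 0 to 2.67. Col1a2 had 42 counts, all in cell 7, which is at least 17.5-fold higher by the floor of 3 counts over the group. Pdgfrb, a receptor gene of stromal cells, had 157 and 117 counts, 139 in cell 19, 63 in cell 24 and 51 in cell 5, and the middle cell 15 had 56. Its level in cell 19 was 3.23 per 10000, beside 3.95 for Gata1 in that cell. The Pdgfrb ratio of 0.74 was −1.97 without cell 19, 1.63 without cell 24 and 1.35 without cell 5. Emcn, an endothelial gene that stem cells also use, had 40 and 41 counts and a ratio of 0.28, or 2.74 without cell 5, −0.49 without cell 16 and −0.36 without cell 4. Of 8 eosinophil markers 2 had enough counts, and the share was 0 to 1.38 and 0 to 0.750. Of the lymphoid list, 4 of 19 had enough counts, with 2 at least 2-fold higher in the low-score cells. Notch1, the lowest in ratio of them, had 3 and 117 counts, 63.2% of the latter in cell 23. Its ratio of −4.75 was −3.53 without cell 23 and −7.18 without cell 19, and the list median of −0.75 was −1.72 without cell 8 and −1.53 without cell 7.

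Stem cell genes had a median of 0.44, with 6 of 16 members at least 2-fold higher in the high-score and 2 in the low-score cells. The median was 1.12 without cells 19, 21 and 22. Meis1, a homeobox factor gene of stem and megakaryocytic cells, was at 1.12 and Angpt1, a ligand gene, at 1.31. Cd34, the surface marker the gate requires, was lower in the high-score cells, with 258 and 623 counts and a ratio of −0.95. Sox4, a factor gene of early progenitors, had 1 count against 246, which lay in only 3 low-score cells with 67.9% in cell 20. Its ratio was −7.04, or −5.68 without cell 20 and −8.49 without cell 8. Genes of MHC class II and interferon response had a median of 1.17 over 7 members, with 4 higher and 1 lower by the 2-fold measure. That median was 0.21 without cell 14, 0.53 without cell 4, 1.83 without cell 24 and −2.76 within cells 17 to 24. The Bcl2 family had 2 of 9 members higher and none lower, with a median of 0.63. They were Bad, which promotes cell death, with 135 and 11 counts and a ratio of 3.88, and Bcl2l1, which opposes it, with 27 and 3 counts and a ratio of 3.29. Cell 7 held 52.6% of the high-score Bad counts, and without it the ratio was 3.08. Cell 14 held 16 of the 27 Bcl2l1 counts, and without it 11 and 3 counts were left, too few for a ratio here. The antiapoptotic genes Bcl2 and Mcl1 were at −0.31 and −0.06.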

How the data were processed

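Single cells were sorted from mouse bone marrow and made into libraries by a modified Smart-seq2 protocol with a cell barcode and a molecular identifier of 8 bases in the oligo(dT) primer, per the labels' protocols. The table the authors deposited holds counts, in whole numbers, by gene symbol and cell. TopHat2 2.0.12, HTSeq, Seurat 2.0 and the build mm10 are named in the submitters' processing notes, without their roles. Whether a count is a read or a molecule is not given in the sources used here.

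The 22 cells CMP 3 to 24 were ranked by the score, and the members, gene lists and tests were chosen with earlier results of these data known. Totals were 88329 to 474240 counts per cell. For a group, the summed counts of its 8 cells were divided by their summed totals. Log2 ratios had 0.5 added to each count, and genes with at least 20 counts over both groups were used. Intervals are exact (Clopper-Pearson, or the conditional binomial for a ratio) at 95%. The bound against a group at 0 uses a floor of 3 counts over the group. Each gate was treated as 1 sample of cells, with no animal named, so no test was made. Genes named by rule were the 15 highest and 15 lowest ratios among genes with at least 50 counts over both groups, a count in 5 or more of the 8 cells of the higher group, at most 50% of that group's counts in 1 cell, and the same direction by the mean over cells and by rho. Score, sex-linked, mitochondrial, ribosomal protein and predicted genes stayed out. Up to 4 members of each of 23 lists with the largest ratios were added, of which the text names some. A few genes are not reported here. Doublets were not called, and no cell was removed. Gene spans come from GENCODE M21 (mm10), and promoters from RefSeq (GRCm38.p6). Python 3.11.15, numpy 2.4.6, pandas 2.3.3, scipy 1.17.1 and matplotlib 3.10.9 were used, and the calculations were tested on simulated data. Alternatives changed the level, the totals, the depth, the count minimum, the score and the cells.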

Additional observations from a re-analysis of the deposited data

Results flagged for a closer look

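In 58 groups of 8 cells, the highest or lowest cell was checked for a gap to its neighbour that is large beside the range of the group, and 9 groups had one. The limit used is one that chance passes in about 1 in 20 groups of normally distributed values. Whether these values have that shape was not checked, and some groups were the score sums that chose the cells. The 9 of 58 are therefore not read against that rate. The values are summed counts per 10000 of the cell. Among the low-score cells, cell 5 had 37.4 of erythroid membrane, enzyme and marker genes, where the next cell had 17.4. Cell 22 had 96.1 of megakaryocyte genes, where the next low-score cell had 7.67. Cell 12 had 148 of the 4 granulocyte score genes, where the next had 89.1.

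Among the high-score cells, cell 8 stood apart for genes of the opposite lineage, with 17.8 of myeloid regulators (next cell 6.25) and 13.1 of monocyte and dendritic cell genes (next cell 4.25). Cell 7 had 59.4 of mature neutrophil markers (next cell 21.5) and 2.53 of B, T and NK cell markers (next cell 0.453). Cell 14 had 1.38 of eosinophil markers (next cell 0.302), and cell 4 had 0.819 of macrophage markers (next cell 0.226).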

How the results depend on the processing

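Single cells limit these results most. Leaving out 1 of the 16 cells moved 117 of 159 gene ratios and list medians by over 1.5-fold at least once. It gave 2109 to 2566 genes at least 2-fold higher in the high-score cells and 1702 to 2065 in the low-score cells. Below, a value that turned is a median or gene ratio of at least 2-fold, for a gene with an interval that leaves out 0, which changed sign. Leaving out 1 cell turned Zbtb7a (−2.45 to 0.06), Dlgap5 (−1.35 to 1.95) and Klf1 (−0.12 to 2.60), and 10 of 17 genes and 7 of 18 list medians under 2-fold also changed sign. The counts at 2-fold were 1459 and 1083 of 6581 genes with every cell thinned. They were 1116 and 781 of 5222 genes with a minimum of 100 counts. Genes whose groups did not overlap numbered 2 of 6581 after thinning and 4 of 8648 with a score constant of 1. There were 23 of 7763 with 6 against 6 cells (0.103% higher and 0.193% lower in the high-score cells), among them the score genes Mpo, Ctsg and Prtn3. Without cells 19, 21 and 22 there were 9 of 8106 (0.0493% and 0.0617%).

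Other scores kept 5 to 8 cells on each side, and a score of Gata1 and Klf1 against Mpo and Elane took cells 5 and 21 to the other side. That score turned Stat6 (0.40), Hdc (2.99), Il1rl1 (−0.86), Cebpd (−1.32), Slamf1 (−2.66), Cdc25c (−0.38) and Alad (0.75). A score without Car1 and Mpo turned Mfng (0.34), Gbp2 (0.03), Hdc (0.45) and Cebpd (−0.66). With 11 against 11 cells, Zbtb7a (0.46), Hoxa9 (1.48), Satb1 (0.03) and Slc2a1 (−0.06) turned, and with 6 against 6 Dlgap5 (−1.03). Within cells 3 to 16, chosen after seeing the data, Tspo2 (−0.68), Ubr7 (−0.11), Bop1 (−0.11), Gata1 (−0.19) and Klf1 (−0.73) turned. Within cells 17 to 24, chosen in the same way, the medians of megakaryocyte genes (−2.15), mature neutrophil markers (−0.47) and MHC and interferon genes (−2.76) turned, as did Pf4 (−4.48), Itga2b (−1.66), S100a8 (−0.47) and Gp1bb (−1.26), around a median of −0.46 for all genes. The causes were not tested. In all, 23 of 136 genes and 3 of 23 list medians turned under at least 1 alternative, and a change of sign at any size was found for 38 genes and 14 medians. Leaving out shallow cells gave no value because 0 cells were under the limit. No paired analysis was possible because the cell numbers name single cells and no test was made.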
